A study of Mus musculus with 5 samples.

Results

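The guanylate-binding proteins (GBPs) and immunity-related GTPases (IRGs) examined here are 10 interferon-induced genes: *Gbp2*, *Gbp3*, *Gbp4*, *Gbp5*, *Gbp7*, *Igtp*, *Irgm1*, *Irgm2*, *Iigp1* and *Ifi47*. They were taken by name from the 27726 genes common to the 5 libraries of a single-cell RNA sequencing study of mouse lung type-2 innate lymphoid cells (ILC2s). *Ifit1*, a gene that leans to type I interferon, was read beside them. All mice were wild-type C57BL/6 females of 4 to 8 weeks, and each library pooled the sorted lung cells of 5 mice. The naïve library came from mice without a tumour. The 4 tumour-associated (ta) libraries came from mice carrying TC1 lung tumour cells placed under the skin of the flank. The 2 ta-non-activated libraries held freshly isolated cells of weeks 2 and 3 after implantation. The 2 ta-activated libraries held cells of the same weeks that were cultured for 7 days with rhIL-2, rmIL-33 and TSLP at 10 ng/mL each. No label names interferon as a treatment, and culture and cytokines came together, so their effects cannot be told apart. Pooled mice make each library 1 sample, and p-values measure the spread between libraries, which may be technical. The 2 libraries of a tumour-associated group came from different weeks, so differences of week and of cell make-up also enter this spread.

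GBPs are large GTPases that gather on the membranes of vacuoles holding microbes and on bacteria in the cytosol. IRGs are smaller GTPases of the same defence, in which *Irgm1*, *Irgm2* and *Igtp* (Irgm3) regulate effectors such as *Iigp1* (Irga6). Type II interferon acts mainly at GAS elements of the DNA, and type I interferon mainly at ISRE elements. GBP and IRG genes respond to both, whereas *Ifit1*, which binds viral RNA lacking a host-type cap, responds above all to type I interferon.

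Barcodes that passed both limits, 200 or more genes and mitochondrial counts below 5%, numbered 6389 for naïve cells. Fresh tumour-associated cells numbered 1823 in week 2 and 1601 in week 3, and cultured ones 2895 and 3822. These were 16530 of 18628 barcodes. The libraries held 9394957 to 61830293 UMIs in kept cells, and median depth ran from 4396 to 16090 UMIs per cell. Between 1 and 8 barcodes were shared by any pair of libraries. The ta-non-activated library of week 3 stood apart. In it 850 of 1601 cells carried at least 2 UMIs of *Cd3d* and *Cd3e* (the CD3 gate), against 20 to 476 cells in the others. Its ILC2 marker list summed to 1607 CPM, against 7838 to 11538 CPM elsewhere, and its T cell list to 5880 CPM, against 289 to 1146 CPM. Its NK or ILC1 list summed to 602 CPM, against 1.59 to 39.2 CPM. Several results that rest on it are therefore also given without the cells of the CD3, endothelial and NK gates. That set kept 743 cells of this library and 1762 to 5720 of the others. The gates need a fixed count of UMIs, so shallow cells pass them less easily. In this library the set without gated cells had a median depth of 2827 UMIs, against 6219 UMIs in CD3 gate cells. Shallow cells with CD3 transcripts may thus remain in that set. The NK gate took only 3 cells of this library, and how much of its NK or ILC1 list the gates removed was not measured. Other results, such as the log2 fold change of each member, are given for all kept cells only.

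The stretches of promoter that hold an ISRE core are shown because the ISRE is the element at which type I interferon mainly acts. Whether these stretches act in these cells was not tested. Promoters were RefSeq sequences of GRCm38.p6, and the 250 bases before the start site were searched on both strands. The ISRE core was GAAA, any 2 bases and GAAA again, which reads TTTC, any 2 bases and TTTC on the other strand. The GAS element was TTCNNNGAA. An entry was found for 8 of the members searched, and 7 of the 8 held the ISRE core in at least 1 promoter. Counted by promoter and not by gene, 2.98% of 32851 promoters held it. *Gbp3* had 2 entries, and the core was in only 1 of them. A GAS element was found in 4 of the 8, and in 7.02% of all promoters. A match of letters is a description of the window, and the motifs can overlap. Capitals mark the ISRE core, which overlaps itself in *Gbp3* and *Irgm1*:
Gbp2: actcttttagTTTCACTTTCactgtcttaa
Gbp3: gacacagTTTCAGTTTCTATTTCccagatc
Gbp5: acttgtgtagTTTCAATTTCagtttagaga
Gbp7: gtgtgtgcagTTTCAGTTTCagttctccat
Igtp: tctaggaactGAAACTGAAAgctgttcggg
Irgm1: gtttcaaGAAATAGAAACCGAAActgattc
Irgm2: tccaggaactGAAACTGAAAgctgttcggg
Ifit1: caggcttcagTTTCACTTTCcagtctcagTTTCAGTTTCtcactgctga

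The stretches lay at chr3:142620594-142620623 for *Gbp2*, chr3:142559992-142560021 for *Gbp3*, chr3:142496759-142496788 for *Gbp5* and chr3:142530273-142530302 for *Gbp7*, all on the plus strand. Those of *Igtp* (chr11:58199512-58199541) and *Irgm2* (chr11:58214903-58214932) lay on the plus strand and that of *Irgm1* (chr11:48871428-48871457) on the minus strand. The *Ifit1* stretch (chr19:34640775-34640823, plus strand) held 2 separate cores. GAS elements were found before *Gbp5*, *Gbp7*, *Igtp* and *Irgm2*, and *Ifi47* held neither motif. *Gbp4* had no promoter entry, and the promoter of *Iigp1* was not searched.

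In GENCODE M21 on GRCm38, *Gbp5*, *Gbp7*, *Gbp3* and *Gbp2* lay in 1 cluster on chromosome 3, between 142493978 and 142638008. *Gbp4* lay on chromosome 5 (105115767 to 105139586) and overlapped *Gbp8* and *Gbp9* on the same strand. *Igtp* (58199556 to 58207591) and *Irgm2* (58199618 to 58222782) overlapped on the same strand of chromosome 11, which also carried *Irgm1* (48861968 to 48871683) and *Ifi47* (49076587 to 49096974), the latter overlapping *Olfr56*. How the counting split reads among overlapping genes is uncertain, so the values of *Gbp4*, *Igtp*, *Irgm2* and *Ifi47* are too.

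The first comparison asked how the GTPases stood in cultured against fresh tumour-associated cells. All 10 members were higher in both ta-activated libraries than in both ta-non-activated libraries, and *Ifit1* was too. By edgeR's quasi-likelihood test none of the 10 passed an adjusted p of 0.05, and none of 12643 genes did (0% called). Levels below are CPM, the UMIs of a gene scaled to the library's total in kept cells, and the intervals of ratios cover counting error only.

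*Iigp1*, an effector IRG, gave the largest difference among the members. It stood at 7.01 and 11.7 CPM in the ta-non-activated libraries of weeks 2 and 3, and at 334 and 105 CPM in the ta-activated libraries of the same weeks. The groups did not overlap, and the log2 fold change was 4.50 ± 0.75 (SE derived from the F statistic, n = 2 against 2, edgeR adjusted p = 0.243). *Irgm2*, a regulatory IRG, stood at 5.18 and 1.38 CPM in fresh cells and at 35.1 and 28.7 CPM in cultured cells. Its cultured libraries were both above its fresh ones, with a log2 fold change of 3.07 ± 0.78 (edgeR adjusted p = 0.252). *Igtp* was at 67.5 and 15.97 CPM in fresh cells and at 344 and 169 CPM in cultured cells. *Irgm1*, which is needed for resistance to mycobacteria in mice, was at 28.0 and 7.34 CPM and then at 146 and 54.8 CPM. For both of these regulators the fresh library of week 2 was the higher fresh one and the cultured library of week 2 the higher cultured one. Their log2 fold changes were 2.44 ± 0.91 and 2.33 ± 0.93 (edgeR adjusted p = 0.294 and 0.307). *Ifi47*, another IRG, was at 116 and 45.3 CPM in fresh cells and at 329 and 190 CPM in cultured cells, with a log2 fold change of 1.53 ± 0.68 (edgeR adjusted p = 0.339).

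Among the GBPs, *Gbp7* had the smallest error. It stood at 25.6 and 39.8 CPM in the fresh libraries of weeks 2 and 3 and at 140 and 163 CPM in the cultured ones, a log2 fold change of 2.13 ± 0.34 (edgeR adjusted p = 0.243). *Gbp3* was at 9.84 and 6.17 CPM in fresh cells and at 26.3 and 32.2 CPM in cultured cells. *Gbp4* was at 116 and 71.1 CPM and then at 410 and 267 CPM. Both of these had a log2 fold change of 1.72, with SE of 0.45 and 0.51 (edgeR adjusted p = 0.252 and 0.256). *Gbp2*, which is drawn to vacuoles of Toxoplasma, was at 85.3 and 10.9 CPM in fresh cells and at 175 and 105 CPM in cultured cells. *Gbp5*, which promotes inflammasome assembly, was at 17.1 and 4.15 CPM and then at 24.04 and 26.2 CPM. In these last 2 genes the fresh libraries differed widely from each other, and the log2 fold changes of 1.34 ± 1.06 and 1.04 ± 0.78 were the lowest of the 10 (edgeR adjusted p = 0.546 and 0.524).

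*Ifit1* was at 1.505 and 10.2 CPM in the fresh libraries and at 268 and 707 CPM in the cultured ones. Its log2 fold change was 6.39 ± 1.17 (edgeR adjusted p = 0.243), above that of each member. The difference between *Ifit1* and the members was not tested.

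**Figure D1:**
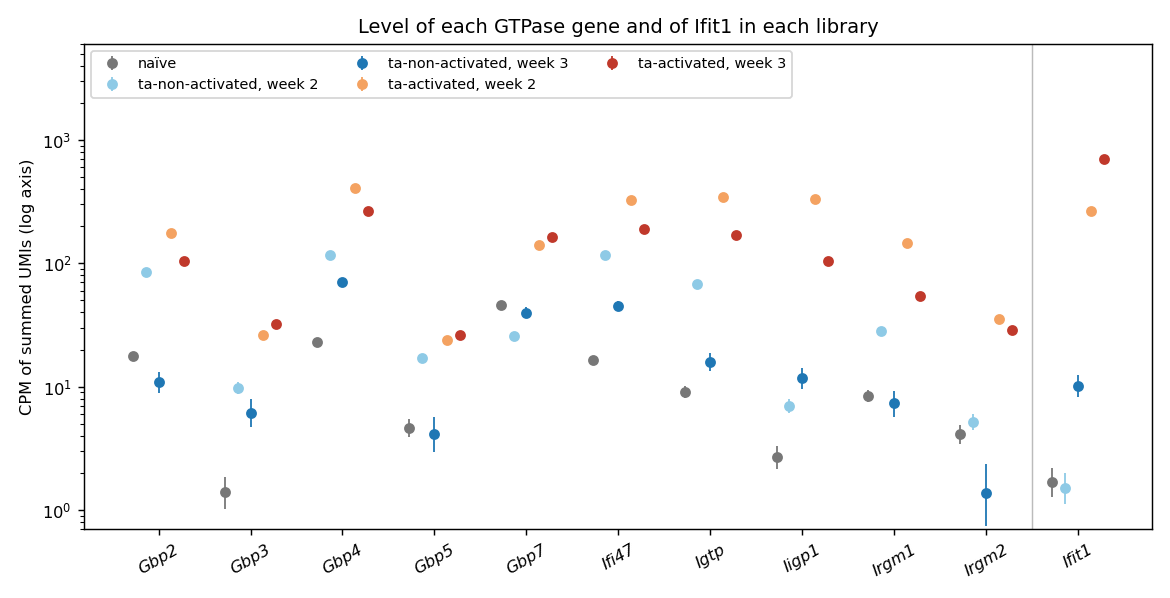
CPM of summed UMIs (log axis) of the 10 GTPase genes and *Ifit1* in each of the 5 libraries, with bars for exact Poisson 95% intervals that cover counting error only. For each gene both ta-activated libraries lie above both ta-non-activated ones, and the ta-activated library of week 3 lies above that of week 2 in *Ifit1*, *Gbp3*, *Gbp5* and *Gbp7*.

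**Figure D2:**
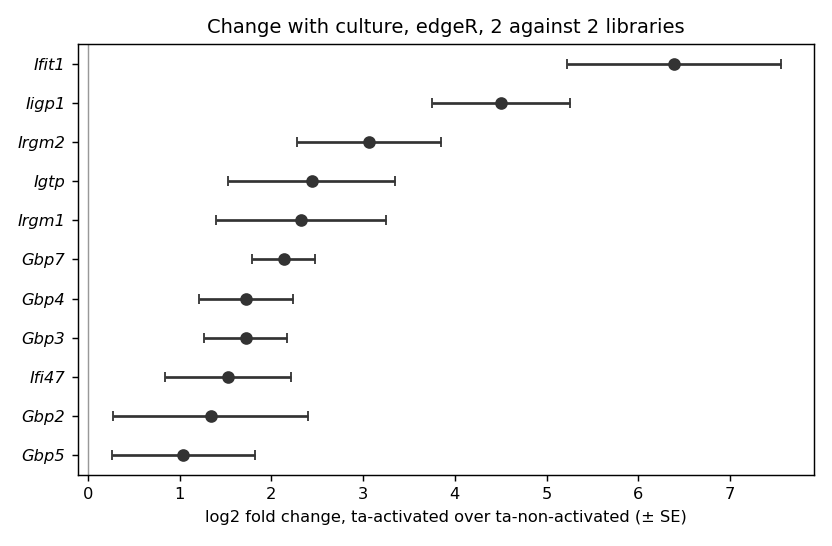
edgeR log2 fold changes of ta-activated over ta-non-activated cells (horizontal axis) for the 10 GTPase genes and *Ifit1*, with bars for ± SE derived from the F statistic, n = 2 against 2 libraries. Values run from 1.04 for *Gbp5* to 4.50 for *Iigp1* and 6.39 for *Ifit1*.

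The count of members without overlap, 10 of 10, stood beside 32.4% of all genes tested. At an unadjusted p under 0.05 in edgeR, 6 of 10 members were higher, beside 9.32% of all genes. DESeq2 called 5 of 10 members higher (*Gbp3*, *Gbp4*, *Gbp7*, *Irgm2* and *Iigp1*), beside 4.54% of all genes. The median log2 fold change was 1.93 over the members and -0.02 over all genes tested. Without gated cells no member and none of 12434 genes passed in edgeR. The members' median was then 2.04, and the log2 fold change of *Ifit1* was 8.17. That value rested on 47 and 4 *Ifit1* UMIs in the fresh libraries of weeks 2 and 3. Without the ta-non-activated library of week 2, which leaves 1 fresh library that is assumed to vary like the cultured ones, edgeR called 6 of 10 members higher, beside 6.01% of all genes, and the median became 3.21. Without that of week 3 it called 2 of 10, beside 1.75% of all genes, and the median was 1.46. *Ifit1* passed in both of these fits (edgeR adjusted p = 0.0387 and 0.0465).

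Lists of related genes were read in the same fit, and none of their genes passed in edgeR. Of the 19 tested genes that lean to type I interferon, *Ifit1* among them, all 19 did not overlap and were higher in culture, with a median log2 fold change of 4.45. DESeq2 called 17 of the 19. Of 18 genes that lean to type II interferon, 10 were higher without overlap, with a median of 1.03, and DESeq2 called 2 (*Cd274*, which encodes PD-L1, and *Serpina3g*). The members' median of 1.93 lay between these values. Of 13 other GBP and IRG genes tested, 12 were higher without overlap, with a median of 4.23, and DESeq2 called 7. *Gbp10* was among them, at 0.24 and 0.43 CPM in fresh cells and at 9.19 and 3.44 CPM in cultured cells. *Gbp8*, which overlaps *Gbp4*, was the exception, at 4.97 and 81.4 CPM in fresh cells and at 73.8 and 34.7 CPM in cultured cells. Without gated cells 13 of 13 did not overlap, beside 32% of all genes. Some genes of these lists could pass the filter on low counts only through the cultured libraries, which fixed their direction. In the 13, *Gm5431* and *Gm4841* had means of 0 and 0.0752 CPM in fresh cells. In the type I list, *Ifit3b* and *Oas1g* had 0.137 and 0.106 CPM. *Ifnb1*, the gene of interferon beta, had no UMI in any library. *Ifng*, the gene of type II interferon, was at 7.87 CPM in naïve cells, 3.61 and 21.9 CPM in fresh cells and 9.43 CPM in week 2 of culture. In week 3 of culture it had 0 UMIs, where the floor set here, 3 UMIs, would be 0.0485 CPM. Without gated cells these were 2.88, 2.15, 12.02 and 2.81 CPM and again 0 UMIs.

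The second comparison set week 2 against week 3, with 1 library on each side and no test. Summed over the 10 members, the level was 478 CPM in week 2 and 214 CPM in week 3 of fresh cells, and 1962 and 1140 CPM in cultured cells. *Ifit1* ran the other way, at 1.505 and 10.2 CPM and at 268 and 707 CPM. The members thus had the higher sum in week 2 and *Ifit1* the higher level in week 3, in fresh and in cultured cells.

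Gene by gene, *Gbp2*, *Gbp4*, *Ifi47*, *Igtp* and *Irgm1* were at least 1.5-fold higher in week 2 in both fresh and cultured cells. These were 5 of 10 members, beside 3.29% of all genes. *Igtp* had week 2 over week 3 ratios of 4.23 (95% interval 3.58 to 5.02) in fresh and 2.04 (1.99 to 2.09) in cultured cells. *Irgm1* had ratios of 3.82 (2.99 to 4.95) and 2.66 (2.55 to 2.77). *Irgm2* leaned the same way by less in culture, with ratios of 3.74 (2.13 to 7.17) and 1.22 (1.15 to 1.30). *Gbp7* was lower in week 2 in both, with ratios of 0.643 (0.568 to 0.728) and 0.860 (0.835 to 0.886). *Gbp3*, *Gbp5* and *Iigp1* changed direction between fresh and cultured cells.

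None of the 10 members was at least 1.5-fold higher in week 3 in both, beside 5.93% of all genes. *Ifit1* was, with week 2 over week 3 ratios of 0.147 (0.102 to 0.209) and 0.378 (0.372 to 0.385). Of the type I list, 17 of 19 genes were, *Ifit1* included. Of the type II list, 6 of 18 were at least 1.5-fold higher in week 2 in both and 0 of 18 in week 3. Of the 13 other GBP and IRG genes, 2 were at least 1.5-fold higher in week 2 in both, and 5 without gated cells. None of the 13 was in week 3. By direction alone, 3 of the 13 were higher in week 2 and 9 lower in fresh cells, and 10 were higher and 3 lower in culture. On the log2 scale of CPM + 1, the median week 2 over week 3 difference in culture was 0.67 over the members, -1.39 over the type I list, 0.78 over the type II list and -0.06 over all genes.

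In the fresh library of week 3, 92 of 96 *Ifit1* UMIs lay in cells of the CD3 gate. *Ifit1* was at 13.0 CPM in those cells and at 1.72 CPM in the set without gated cells, and the members summed to 237 and 144 CPM. Without gated cells, 6 of 10 members were at least 1.5-fold higher in week 2 in fresh and cultured cells, beside 3.79% of all genes, with *Iigp1* joining at ratios of 2.38 (1.14 to 5.99) and 3.36 (3.27 to 3.46). None was at least 1.5-fold higher in week 3 in both, beside 6.64% of all genes, and *Ifit1* no longer was. Of the type I list 11 of 19 genes still were, on 1 to 108 UMIs each in fresh cells of week 3. *Isg15*, a ubiquitin-like protein of that list, then stood at 17.8 and 46.4 CPM in fresh cells of weeks 2 and 3. The *Ifit1* ratio in fresh cells became 0.867 (0.317 to 3.31), which rested on 4 UMIs in week 3, while its ratio in cultured cells was 0.415 (0.407 to 0.423). The lower *Ifit1* of week 2 was thus not detectable in fresh cells without gated cells at this depth, and was seen in cultured cells in both cell sets.

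**Figure D3:**
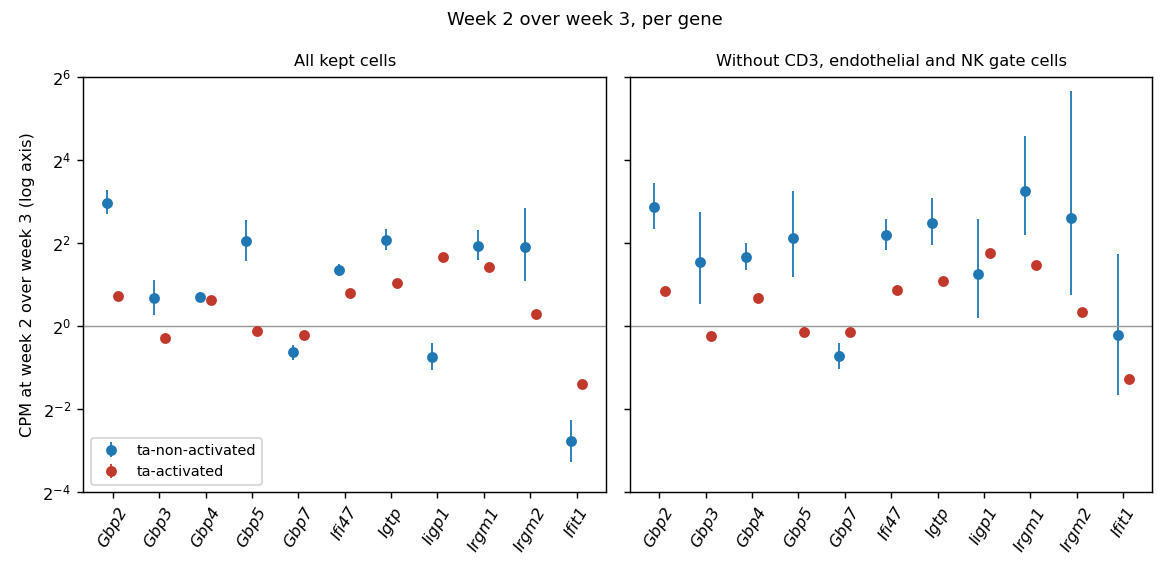
Ratio of CPM at week 2 over week 3 (log axis) per gene in ta-non-activated and ta-activated cells, in all kept cells (left) and without CD3, endothelial and NK gate cells (right), with 95% intervals for counting error. Without gated cells *Iigp1* in fresh cells moves above 1 and the interval of *Ifit1* spans 1.

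The members' summed UMIs per *Ifit1* UMI give both patterns in 1 value per library. There were 78.5 (60.2 to 104) in the naïve library, 318 (241 to 428) and 20.9 (17.0 to 26.0) in fresh cells of weeks 2 and 3, and 7.33 (7.21 to 7.46) and 1.61 (1.59 to 1.63) in cultured cells. The cultured libraries held the fewest member UMIs per *Ifit1* UMI, and week 3 held fewer than week 2 in each state. Without gated cells the fresh library of week 3 came to 83.8 (32.4 to 309), whose interval overlapped those of the naïve and week 2 libraries. The cultured values were then 6.93 and 1.60.

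**Figure D4:**
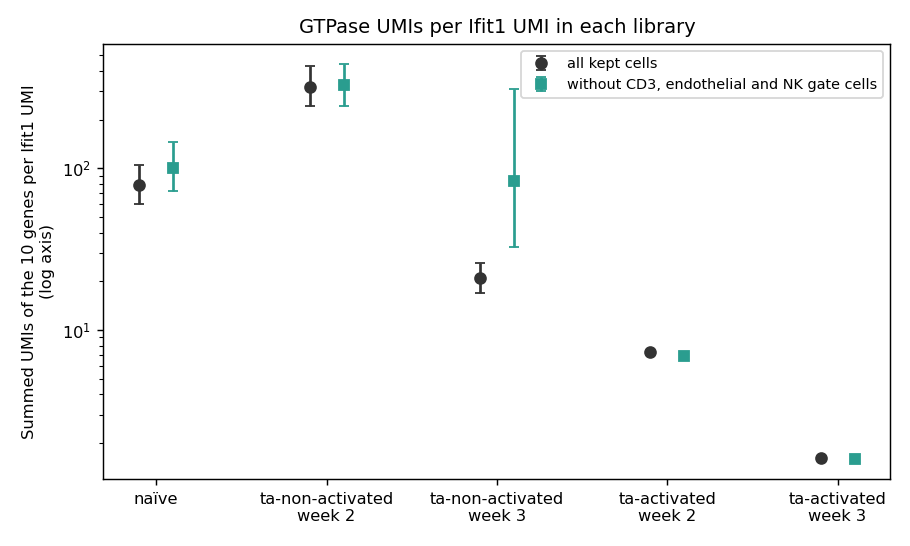
Summed UMIs of the 10 GTPase genes per *Ifit1* UMI (log axis) in each library, in all kept cells and without CD3, endothelial and NK gate cells, with 95% intervals for counting error. The values fall from 318 in fresh cells of week 2 to 1.61 in cultured cells of week 3, and the week 3 fresh value moves from 20.9 to 83.8 without gated cells.

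The third comparison set the fresh tumour-associated libraries against the naïve library, which has 1 library and allows no test. In week 2, 8 of 10 members were at least 2-fold above naïve, beside 21.1% of all genes. Of the 13 other GBP and IRG genes, 4 were. On the log2 scale of CPM + 1 their median difference was 0.12, against 1.93 over the members. *Igtp* was at 9.11 CPM in the naïve library and 67.5 CPM in week 2, a ratio of 7.41 (6.56 to 8.40). *Ifi47* was at 16.4 and 116 CPM, a ratio of 7.09 (6.48 to 7.78). *Gbp7* was the member below naïve, at 46.0 and 25.6 CPM. *Ifit1* was at 1.70 and 1.505 CPM, a ratio of 0.886 (0.592 to 1.32), and 1 of 19 genes of the type I list was at least 2-fold above naïve, against 7 of 18 of the type II list. The higher members of week 2 were thus seen at *Ifit1* levels whose difference was not detectable at this depth.

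In week 3, 4 of 10 members (*Gbp3*, *Gbp4*, *Ifi47* and *Iigp1*) were at least 2-fold above naïve, beside 20.4% of all genes. Of the type I list, 15 of 19 genes were, *Ifit1* included. Of the 13 other GBP and IRG genes, 7 were, and 2 were without gated cells. *Ifit1* was at 10.2 CPM, a ratio of 6.02 (4.28 to 8.54). Without gated cells 1 of 10 members was, *Gbp3* at 2.96 (1.18 to 6.54) on 8 UMIs in week 3, beside 8.83% of all genes, as were 11 of 19 genes of the type I list, and the *Ifit1* ratio was 1.40 (0.360 to 3.90). The naïve matrix was made with another release of Cell Ranger than the other 4, and its part in these ratios was not tested.

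Cells were then thinned to 2000 UMIs each, and those with fewer were left out. At least 1 UMI of any member was found in 20.95% of naïve cells, 49.5% and 32.7% of fresh cells of weeks 2 and 3, and 90.0% and 83.0% of cultured cells of weeks 2 and 3. Unthinned, these shares were 40.6%, 92.3%, 55.5%, 98.9% and 98.0%. The share without gated cells was read at 2000 UMIs among cells with no *Ifit1* UMI. It was 19.9% in naïve cells, and 49.3% and 22.4% in fresh cells of weeks 2 and 3. In CD3 gate cells of the week 3 fresh library it was 39.8%. At least 3 members were found together in 0.521% of naïve cells, 9.23% and 1.27% of fresh cells, and 56.3% and 31.9% of cultured cells. The interferon-induced GTPases can be made by any cell type, so no cell type here gave a background for free RNA.

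Within the cultured libraries the members were higher in the cells with an *Ifit1* UMI. Cells were split by their thinned counts, and levels are CPM of all their UMIs. In week 2, the 1073 cells with an *Ifit1* UMI had 3466 CPM of the members, and the 1749 cells without had 1455 CPM, a ratio of 2.38 (2.35 to 2.41). In week 3, the values were 1518 CPM in 2189 cells and 736 CPM in 1525 cells, a ratio of 2.06 (2.03 to 2.10). Cells without an *Ifit1* UMI were still above the whole fresh libraries, at 478 and 214 CPM. They lacked *Ifit1* only in the thinned counts. In all their UMIs *Ifit1* stood at 73.9 CPM in week 2 and 181 CPM in week 3. Both were above the 1.505 and 10.2 CPM of the fresh libraries, so these were not cells free of *Ifit1*. Cells are not replicates, so no test was made.

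In culture, the members at least 2-fold higher in cells with an *Ifit1* UMI were 9 of 10 in week 2, beside 1.58% of genes with at least 20 CPM. They were 7 of 10 in week 3, beside 0.634%. In week 3 they were 4 of 10 without gated cells, beside 0.542%, and 2 of 10 with cells thinned to 1000 UMIs, beside 0.373%. *Iigp1* stood at 671 and 220 CPM in cells with and without an *Ifit1* UMI in week 2, and at 160 and 44.8 CPM in week 3. *Gbp3* gave the lowest ratios, 1.88 in week 2 and 1.78 in week 3. List genes were read where they had at least 20 CPM over both sets of cells together. The type I list, here without *Ifit1*, was at least 2-fold higher in 11 of 11 and 12 of 16 such genes. The type II list was so in 2 of 12 and 1 of 8. Some genes met this limit only through the cells with an *Ifit1* UMI, such as *Rsad2* in week 2 (99.3 CPM with and 14.3 CPM without).

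Depth and cycling moved with this split in the cultured libraries, and their part in it was not tested. Before thinning, cells with an *Ifit1* UMI had median depths of 9690 and 11528 UMIs in weeks 2 and 3, and cells without had 17832 and 15052 UMIs. Cycling cells, with at least 2 UMIs of *Mki67* and *Top2a*, had 1460 CPM of the members in week 2 of culture and the others 2528 CPM, and in week 3 they had 915 and 1380 CPM. *Ifit1* was also lower in cycling cells, at 127 and 427 CPM in week 2 and at 482 and 945 CPM in week 3.

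**Figure D5:**
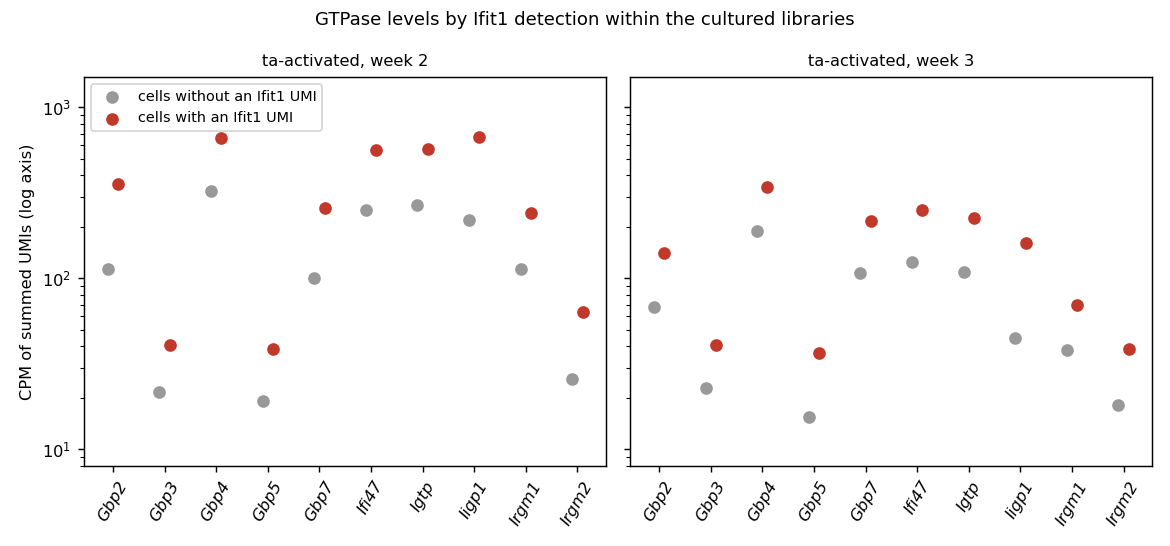
CPM (log axis) of each GTPase gene in cells with and without an *Ifit1* UMI, in the ta-activated libraries of week 2 (left) and week 3 (right). Cells were split after thinning to 2000 UMIs, and CPM use all their UMIs. All 10 genes lie higher in cells with an *Ifit1* UMI, from 1.78-fold (*Gbp3*, week 3) to 3.58-fold (*Iigp1*, week 3).

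Over the 5 libraries, likeness was the distance between a gene's centred log2(CPM + 1) values and the members' mean, among 7410 genes. Among the nearest genes were *H2-T22* (distance 0.60), *Nampt* (0.68), *Tap1* (0.78) and *Clec2d* (0.84). *Tap1*, a subunit of the peptide transporter of antigen presentation, was at 25.2 CPM in naïve cells, 71.1 and 44.2 CPM in fresh cells and 202 and 199 CPM in cultured cells. *Ifit1* lay far off, at a distance of 5.12 and rank 6576. This distance grows with the size of a gene's changes as well as with their pattern. A far gene can thus still rise and fall with the members. Of the members, *Iigp1* (2.64) and *Gbp7* (2.01) lay farthest from the mean.

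Over the cells of each cultured library likeness was a Pearson correlation of log-scaled counts. Counting noise can lower it in genes with few UMIs, so its size and ranks can also follow a gene's abundance. The ranks of this correlation and those of the distance over libraries come from unlike measures and gene sets, so they are not directly comparable. *Ifit1* ranked 1 of 4926 genes by the lower of its correlations with the members' sum (r = 0.624 over 2895 cells in week 2 and 0.615 over 3822 cells in week 3). *Isg15* (0.589 and 0.580) and *Ifit3* (0.552 and 0.609) followed. By this measure the members themselves ran from 0.275 (*Gbp3*) to 0.664 (*Igtp*) in week 2. In week 3 they ran from 0.255 (*Irgm2*) to 0.499 (*Iigp1*), all below *Ifit1*. The cells share a library but differ in depth, and no p is given.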

How the data were processed

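Lung ILC2s were sequenced as single cells in 5 droplet libraries (10x Genomics, 3' ends). The deposited values are the authors' unnormalized counts of UMIs for each gene and barcode. Matrix headers name Cell Ranger 6.0.0 for the naïve library and 3.0.2 for the other 4, and the submitters' processing notes name GRCm38. The annotation used for counting is not given in the sources used here, and 27639 of the 27726 common gene identifiers (99.7%) were found in GENCODE M21. Whether same-strand overlaps or intron reads were counted is not given either.

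The members, lists, gates and naming rule were chosen with earlier results of these data known. Named genes were the members, *Ifit1*, fixed lists of other GBP and IRG, type I, type II and signalling genes, and the 5 nearest genes by likeness, of which 1 gene and the counts of the signalling list are not reported here. *Gbp11*, *Gm12250* and *Mx2* of the lists were not among the common genes. A barcode was kept as a cell at 200 genes or more and a mitochondrial share below 5%, and doublets were not removed. CPM (UMIs of a gene over the library's total in kept cells) have exact Poisson intervals. Ratios have conditional binomial intervals and shares Clopper-Pearson intervals, all at 95% and for counting error only. The CD3, endothelial and NK gates took cells with at least 2 UMIs of their genes, and the endothelial gate rested mainly on *Egfl7* in cultured cells. Ta-activated was tested against ta-non-activated on counts summed per library, 2 against 2, with edgeR 4.0.16 (filterByExpr, TMM, quasi-likelihood F test, Benjamini-Hochberg adjustment, threshold 0.05). The SE was the absolute log2 fold change over the square root of the F statistic. It thus rests on the dispersion of the fit, which draws on all genes, and is not a spread measured for the gene alone. The fit was also run on simulated counts with known changes and no differences of week or cell type, and the outcome is not reported here. Alternatives were DESeq2 1.42.0, no normalization factors, no filter, a replicate block for the week, all 5 libraries in 1 fit, a mitochondrial limit of 10%, all barcodes, no gated cells, each library left out, and thinning to 1000 or 5000 UMIs or none. Python 3.11.15, numpy 2.4.6, scipy 1.17.1, pandas 2.3.3 and matplotlib 3.10.9 were used.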

Additional observations from a re-analysis of the deposited data

Results flagged for a closer look

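These values went in opposite directions in 2 settings, with counting intervals that exclude 1 on both sides. Each setting has 1 library on a side, and the difference between the settings was not tested. *Gbp2* was above naïve in fresh cells of week 2 (ratio 4.84) and below it in week 3 (0.616), both against the same naïve library. Without gated cells the ratios were 5.19 and 0.714, and the interval of the second (0.469 to 1.05) spanned 1. *Gbp3* was higher in week 2 than week 3 in fresh cells (1.59) and lower in cultured cells (0.819), and without gated cells the ratios were 2.90 and 0.844. *Gbp5* behaved likewise, with 4.12 and 0.918, and 4.33 and 0.907 without gated cells. *Iigp1* was lower in week 2 in fresh cells (0.599) and higher in cultured cells (3.19). Without gated cells both of its ratios were above 1, at 2.38 and 3.36.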

How the results depend on the processing

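All 10 members had a positive log2 fold change in the 13 other fits, with 116 member values on the same side of the threshold and 14 that passed it. DESeq2 called 5 of 10 members and *Ifit1* (log2 fold change 6.33), and 574 genes higher and 463 lower over all genes, against 0 and 0 in edgeR, in which 1178 were higher and 942 lower at an unadjusted p under 0.05. Leaving out 1 library gave 0 to 6 members called, a median of 1.46 to 3.21 and an *Ifit1* log2 fold change of 5.58 to 8.08. The remaining single library of an arm was assumed to vary like the other group. It gave 817 higher and 829 lower calls without the ta-non-activated library of week 2, 233 and 280 without that of week 3, and 0 without either cultured library. The replicate block for the week gave 0 members, a median of 2.09 and 6.69 for *Ifit1*. Week deviations of the 2 groups had r = -0.06 over 12643 genes, so the week numbers were not taken as pairs. The block without gated cells, chosen after seeing the data, called 1 member (*Iigp1*) and *Ifit1* (7.95), with 42 higher and 4 lower calls over all genes. In that cell set *Iigp1* and *Ifit1* had 7 and 4 UMIs in the fresh library of week 3. Members per *Ifit1* UMI became 83.8, 6.93 and 1.60 without gated cells in the week 3 fresh, week 2 cultured and week 3 cultured libraries, and 7.55 and 1.63 in cultured libraries with all barcodes. In culture the ratio of members between cells with and without an *Ifit1* UMI became 2.26 (week 2) and 2.01 (week 3) without gated cells. In week 3 it was 2.34 at 5000 UMIs and 2.31 without thinning. At 1000 UMIs, chosen after seeing the data, it was 2.14 and 1.90, and the members at least 2-fold higher in week 3 were 2, against 4 without gated cells. The cause of these moves was not tested. Shares of cells with a member UMI moved with the depth of thinning in all 15 recomputed values. The fresh library of week 3, with the fewest UMIs, limits the ratios that use it, and a count of 2 *Irgm2* UMIs was left there without gated cells.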
